A study of Mus musculus with 8 samples.

Results

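Msln, which encodes mesothelin, is 1 of 36255 genes in a table of read counts from 8 mouse RNA libraries, and its row is described here in every library. It was chosen by its measured values in these libraries, where it stood out among the genes that were higher in knockout cells, so its own levels and ratios are given as a description with no test. The study compared Skp1a fl/fl cells, in which loxP sites flank all or part of the undeleted gene, with cells labelled Skp1a KO. Both genotypes were sampled as embryonic stem (ES) cells and as day 2 embryoid bodies (EBd2), the aggregates in which ES cells start to differentiate. Each of the 4 groups holds 2 libraries, which the titles number by lot: lots 1 and 2 in fl/fl ES cells, 1 and 12 in both KO ES cells and fl/fl EBd2, and again 1 and 2 in KO EBd2. The series concerns SKP1A, PRC2 and genes silenced by Polycomb. The labels give a standard medium and poly(A) RNA for all samples, and name neither the Cre nor the clones. They do not say whether lots are separate cultures, so the spread between libraries may be technical, and p values measure only that spread. The tissue field calls all KO samples ES cells and all fl/fl samples embryoid bodies, against the titles, and the groups used here follow the titles.

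Mesothelin is a glycoprotein held at the outer face of the cell membrane by a glycosylphosphatidylinositol (GPI) anchor. It is made as a precursor, which furin-like proteases cut into a soluble fragment, megakaryocyte potentiating factor, and the anchored mesothelin, which sheddases such as ADAM17 can release and which binds the mucin MUC16. In the adult it marks the mesothelium, the lining of the pleura, pericardium and peritoneum, and it is abundant in mesothelioma and in many ovarian and pancreatic carcinomas, where it is a target of antibody therapies. SKP1 joins F-box proteins to CUL1 in SCF ubiquitin ligases, and PRC2 is the Polycomb complex that methylates lysine 27 of histone H3 at silent genes, often at promoters rich in CpG dinucleotides.

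Total counts ran from 21545868 to 23343471 in the 4 ES cell libraries and from 7858452 to 10055667 in the 4 EBd2 libraries. The targeted gene, Skp1a (chromosome 11, 52231995 to 52246858, + strand, GRCm38), stood at 425.2 ± 7.19 in fl/fl and 365.1 ± 5.35 in KO ES cells, in counts scaled to a common library size (CPM; mean ± SD, n = 2). The EBd2 levels were 395.3 ± 8.74 CPM for fl/fl and 287.7 ± 2.67 CPM for KO. It thus fell at both stages (log2 fold change -0.22 ± 0.03 and -0.46 ± 0.04 standard error, SE; edgeR quasi-likelihood test, adjusted p = 0.00073 and 5.13e-07), and most of its reads remained in the libraries labelled KO. Gene counts do not show which exons are present. The titles were checked against stage markers. From ES cells to EBd2, 11 of 13 naive pluripotency markers fell in fl/fl and 11 of 13 in KO, while formative and primed epiblast markers rose for 11 of 11 in fl/fl and 9 of 11 in KO. Of all genes tested, 28.9% rose and 30.1% fell over that step in fl/fl (59.0% called), and 31.7% rose and 33.1% fell in KO (64.8% called). The median rise of the epiblast list was 3.03 in fl/fl and 0.53 in KO on the log2 scale.

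Msln lies on chromosome 17 at 25748613 to 25754378 on the − strand (GRCm38, GENCODE vM21, ENSMUSG00000063011.7). The annotation gives it 9 transcripts, 4 of them coding, 3064 exonic bases, and no other gene overlapping its body. Its nearest neighbour, Mslnl (mesothelin-like), faces it from the opposite strand at 25736042 to 25748330 and ends 282 bases from the end of Msln. Of the 2206 distinct 50-base words in its coding transcripts, 0 occur in transcripts of other genes, Mslnl included. This covers exact matches between annotated transcripts and does not show how the deposited reads were assigned. In all 9 transcripts together, 95 of 3293 words occur elsewhere. The sources used here do not give how reads that match several places were counted.

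The stretch around the starts of the neighbouring genes is shown because those genes were measured beside Msln below. RefSeq's table (GRCm38.p6) matched 7 of the 9 genes looked up, with no match for Msln or Fam173a. Each window runs 5′ to 3′ from 250 bases before to 50 bases after the start of the gene, and capitals mark each CG dinucleotide, a motif that reads the same on both strands. Mslnl, chr17:25735790-25736089 on the + strand, holds 2 CG dinucleotides, and 23.3% of the 32851 RefSeq promoters hold as few or fewer. Rpusd1, chr17:25727467-25727766 on the + strand, holds 16, and 68.6% of promoters hold as few or fewer. The window of Chtf18, on the opposite strand, overlaps that of Rpusd1.
Mslnl: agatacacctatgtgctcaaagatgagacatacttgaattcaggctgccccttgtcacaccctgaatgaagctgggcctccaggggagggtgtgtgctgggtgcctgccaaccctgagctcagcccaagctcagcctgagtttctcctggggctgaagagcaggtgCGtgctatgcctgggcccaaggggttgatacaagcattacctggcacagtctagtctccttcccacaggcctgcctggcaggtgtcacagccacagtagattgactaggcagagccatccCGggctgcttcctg
Rpusd1: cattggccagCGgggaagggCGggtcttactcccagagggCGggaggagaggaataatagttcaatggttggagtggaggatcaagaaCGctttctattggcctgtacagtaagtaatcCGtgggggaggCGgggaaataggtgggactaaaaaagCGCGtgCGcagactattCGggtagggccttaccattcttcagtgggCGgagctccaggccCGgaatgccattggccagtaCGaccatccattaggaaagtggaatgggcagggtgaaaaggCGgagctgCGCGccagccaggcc

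Msln was low in fl/fl ES cells, higher in KO ES cells, not detected in fl/fl EBd2 and highest in KO EBd2. Fl/fl ES cells had 85 reads in lot 1 and 75 reads in lot 2, and KO ES cells had 456 in lot 1 and 408 in lot 12. In fl/fl EBd2 there were 0 reads in lot 1 and 0 in lot 12, against 279 in lot 1 and 350 in lot 2 of KO EBd2. No KO library overlapped a fl/fl library at either stage.

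In CPM, with library sizes scaled by TMM (trimmed mean of M values) and exact Poisson 95% intervals, fl/fl ES cells held 3.82 CPM (3.05 to 4.72) in lot 1 and 3.66 CPM (2.88 to 4.59) in lot 2. KO ES cells held 20.3 CPM (18.5 to 22.3) in lot 1 and 18.9 CPM (17.1 to 20.8) in lot 12. KO EBd2 held 27.3 CPM (24.2 to 30.7) in lot 1 and 31.3 CPM (28.1 to 34.8) in lot 2. The intervals of the libraries of each group overlapped each other, and none reached into another group. They cover counting error only. A count of 0 allows up to 0.405 CPM in lot 1 and 0.346 CPM in lot 12 of fl/fl EBd2, taking 3 counts as the limit, and 0.187 CPM over both libraries together. EBd2 libraries were shallower. After all libraries were thinned to 7858452 counts, the total of fl/fl EBd2 lot 1, fl/fl ES cells had 26 and 24 Msln reads, KO ES cells 158 and 133, and KO EBd2 235 and 271.

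**Figure D1:**
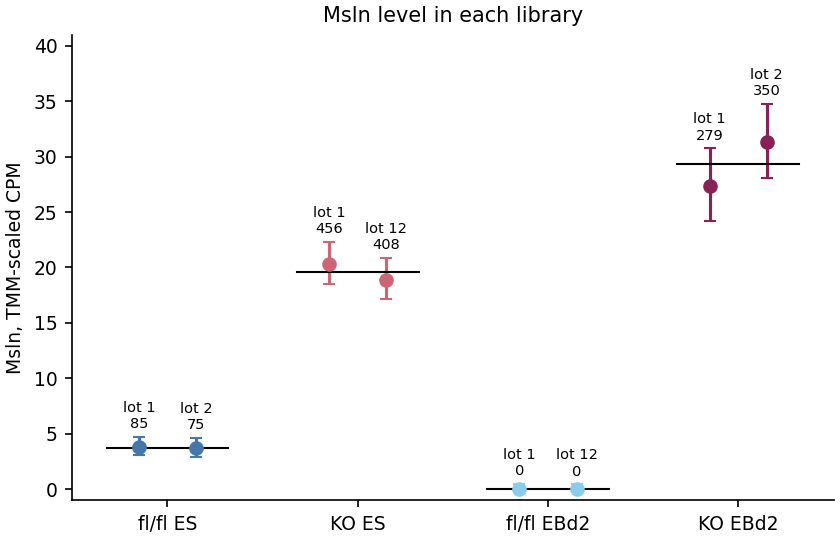
Msln in TMM-scaled CPM (y axis) in each library of the 4 groups (x axis). Points are libraries with exact Poisson 95% intervals, horizontal lines are group means, and labels give the lot and the read count. Fl/fl EBd2 sits at 0, and KO libraries lie above the fl/fl libraries of the same stage.

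Group means (SD, n = 2) were 3.74 ± 0.109 CPM in fl/fl ES cells, 19.6 ± 1.01 CPM in KO ES cells and 29.3 ± 2.8 CPM in KO EBd2. The order fl/fl EBd2, fl/fl ES, KO ES, KO EBd2 had no overlap between neighbouring groups. Among the 16542 genes that passed the filter on low counts, 682 (4.12%) showed that same order without overlap, and since Msln was chosen for its values this share is background only.

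In ES cells the pooled ratio of KO over fl/fl was 5.24, with a counting interval of 4.42 to 6.25. The 4 pairs of single libraries gave 4.95 to 5.55. Both libraries of lot 1, the only lot number that KO and fl/fl ES cells share, gave 5.33. In EBd2 the KO level was 158-fold the level of 3 counts over both fl/fl libraries. This is a nominal bound that leaves out the counting error of KO, and no upper limit can be given. The exact Poisson 95% limits, at most 0.229 CPM in fl/fl EBd2 and at least 27.2 CPM in KO EBd2, would give a smaller bound. With 1 of the fl/fl EBd2 libraries left out the bound was 84.8-fold (without lot 1) or 72.8-fold (without lot 12). These samples are bulk RNA, so more cells that express Msln and more Msln RNA per cell cannot be told apart.

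Between the stages the genotypes went opposite ways. In fl/fl cells the nominal bound, on the same limit of 3 counts over the group, was 20.1-fold lower in EBd2 than in ES cells. It was 10.8-fold without fl/fl EBd2 lot 1 and 9.3-fold without lot 12. The exact Poisson 95% limits, at most 0.229 CPM in fl/fl EBd2 and at least 3.19 CPM in fl/fl ES cells, would again give a smaller bound. In KO cells Msln was 1.5-fold higher in EBd2 (interval 1.35 to 1.66), and the library pairs gave 1.34 to 1.66. By fitted fold change among the genes tested, Msln ranked 75th among rises in KO ES cells, 1st among rises in KO EBd2, 15th among falls from ES cells to EBd2 in fl/fl, and 3636th among rises from ES cells to EBd2 in KO. The ranks in KO EBd2 and in the fl/fl step rest on a group with 0 reads, where a fitted fold depends on the prior count.

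Divided by exonic length, Msln stood at 1.22 CPM per kb in fl/fl ES cells, 6.4 in KO ES cells, 0 in fl/fl EBd2 and 9.57 in KO EBd2. On the same scale it exceeded 39.9% of detected protein-coding genes in fl/fl ES cells, 65.2% in KO ES cells and 73.5% in KO EBd2. In KO ES cells this level per kb lay between those of the protease genes Furin (5.29) and Adam17 (8.6), and in KO EBd2 it lay above both (6.46 and 8.44).

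Most neighbouring genes did not share the size of the difference, but several of the closest were also higher in KO cells. Across all genes tested, 10.9% rose and 12.8% fell in KO ES cells (23.7% called in all). Of 26 protein-coding genes in the table that start within 200 kb of the start of Msln, 23 were tested. Among them 6 rose and 0 fell in KO ES cells, with a median log2 fold change of -0.03 against 0.00 over all genes. Those 6 were Mslnl, Rpusd1, Chtf18, Fam173a, Metrn and Fbxl16, and all start within 100 kb, where 15 genes were tested, with a median of 0.37. In DESeq2, and on leaving out single libraries, the count fell to 3. In EBd2, where 30.7% of all genes rose and 31.5% fell (62.2% called), 9 neighbours rose and 9 fell, with a median of -0.07. Within 100 kb 7 rose and 5 fell there, with a median of 0.44.

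Mslnl, the neighbour nearest to Msln in position, was also lowest in fl/fl EBd2 and higher in KO at both stages, at a far lower level. Unlike Msln it was not higher in KO EBd2 than in KO ES cells (1.39 and 1.43 CPM). Mslnl ends 282 bases from the end of Msln, and with the strand setting of the counting unknown its counts are uncertain. It had 10 and 9 reads in fl/fl ES cells, 33 and 30 in KO ES cells, 0 and 2 in EBd2 of fl/fl, then 12 and 18 in EBd2 of KO. Its log2 fold change was 1.67 ± 0.44 (SE) in ES cells, where edgeR gave an adjusted p = 0.0183, and 3.41 ± 0.75 at the EBd2 stage (adjusted p = 0.0021). The EBd2 value rests on 2 reads in fl/fl: it was 2.56 without fl/fl EBd2 lot 1, 7.53 without lot 12 and 6.34 at thinned depth. With these counts the ES call did not hold in DESeq2 (adjusted p = 0.123), with lot as a block (0.125), or without any 1 of the 4 ES cell libraries (0.0893 to 0.108). Per kb Mslnl reached 0.545 CPM in KO ES cells and 0.53 in KO EBd2, against 6.4 and 9.57 for Msln.

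Beyond Mslnl lie Rpusd1, a member of a family of pseudouridine synthases, and Chtf18, a subunit of an alternative clamp loader in DNA replication. Rpusd1 rose from 10.5 ± 0.271 to 17.1 ± 1.17 CPM in ES cells and from 11.7 ± 0.906 to 19.96 ± 1.15 CPM in EBd2 (log2 0.70 ± 0.09 and 0.76 ± 0.11, edgeR adjusted p = 0.000297 and 0.0001). Chtf18 rose from 65.9 ± 1.48 to 93.1 ± 0.512 CPM and from 61.7 ± 3.21 to 102.2 ± 4.05 CPM (0.50 ± 0.04 and 0.73 ± 0.05, adjusted p = 3.22e-05 and 3.4e-07). Unlike Msln, neither gene lost its reads in fl/fl EBd2. The interaction of genotype and stage, which asks whether the genotype difference changes with stage, was called in 48.0% of all genes (22.4% upward, 25.7% downward). Of the 23 neighbours, 2 had it upward and 9 downward. It was called for Chtf18 (0.24, adjusted p = 0.0151) and not for Rpusd1 (0.06, adjusted p = 0.774) or Mslnl (1.74 ± 0.97, adjusted p = 0.162).

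Gng13, a G protein subunit, completes that side, with 0.298 to 0.807 CPM across groups and no call at either stage (adjusted p = 0.328 and 0.361). On the side of the Msln promoter, Ciao3, which serves the assembly of cytosolic iron-sulfur proteins, did not pass in ES cells (0.23 ± 0.10, adjusted p = 0.121). In EBd2 it passed (0.35 ± 0.12, adjusted p = 0.0278), but not with lot as a block (0.0779), nor without KO lot 1 (0.18, adjusted p = 0.243) or either fl/fl EBd2 library (0.0928 and 0.1). Haghl gave 0.27 ± 0.12 in ES cells (adjusted p = 0.141) and -0.07 ± 0.17 in EBd2 (adjusted p = 0.724), where its sign turned with library size scaling and without fl/fl EBd2 lot 1. Ccdc78 had too few reads to be tested. Fam173a rose by 0.37 ± 0.09 in ES cells (adjusted p = 0.0133), which did not hold in DESeq2 (0.0541), without KO ES lot 1 (0.129) or without either fl/fl ES library (0.0646 and 0.088), and by 0.55 ± 0.13 in EBd2 (adjusted p = 0.00251). Chtf18 overlaps Gng13, Ciao3 overlaps Haghl and Ccdc78 overlaps Fam173a, and with the strand setting of the counting unknown their counts are uncertain.

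Metrn and Fbxl16 were singled out after their values were seen. Metrn, a secreted factor of the nervous system, rose by 0.91 ± 0.07 in ES cells and 0.44 ± 0.10 in EBd2 (edgeR adjusted p = 2.22e-05 and 0.00258). Fbxl16, which encodes an F-box protein, rose by 0.46 ± 0.12 in ES cells (adjusted p = 0.016, but 0.111 in DESeq2, 0.135 with lot as a block, and 0.111 and 0.121 without KO ES lot 12 or fl/fl ES lot 2) and fell by 1.21 ± 0.16 in EBd2 (adjusted p = 4.89e-05).

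**Figure D2:**
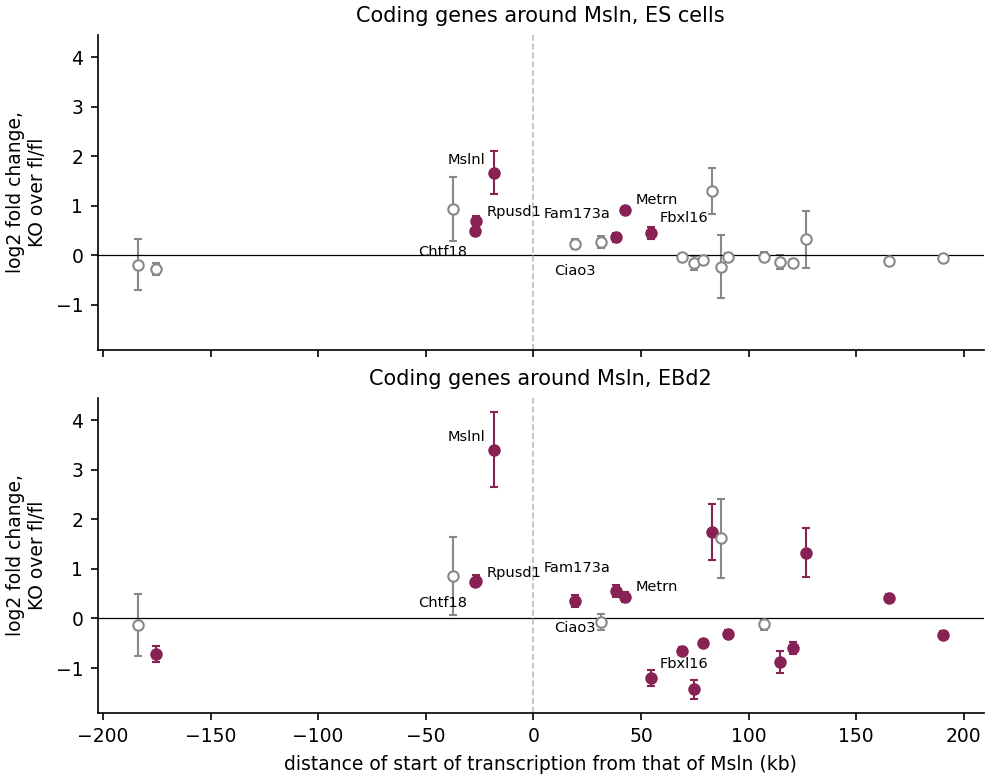
Log2 fold change of KO over fl/fl (y axis) for tested protein-coding genes against the distance of their start from that of Msln in kb (x axis; Msln at 0, not drawn), in ES cells (top) and EBd2 (bottom). Bars are standard errors and filled points passed an adjusted p of 0.05. The 6 genes that rose in ES cells lie within 100 kb, and Mslnl is the highest point in EBd2.

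Of the 32 listed genes that process, anchor, shed or bind mesothelin, 31 are in the table and 30 were tested. In ES cells 3 rose and 2 fell, with a median log2 fold change of 0.04, and DESeq2 called 2 in all. In EBd2 13 rose and 5 fell, with a median of 0.22 against 0.00 over all genes. Beside the 23.7% and 62.2% of all genes called in either direction at the 2 stages, the number called set the list apart at neither. By direction its EBd2 calls leaned upward, where 30.7% of all genes rose and 31.5% fell.

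Furin, the protease that cuts the precursor, stood at 55.5 ± 2.63, 48.6 ± 0.0904, 51.6 ± 2.8 and 59.2 ± 6 CPM (SD, n = 2) in fl/fl ES, KO ES, fl/fl EBd2 and KO EBd2. Its differences were small and of opposite sign, -0.19 ± 0.06 in ES cells and 0.20 ± 0.08 in EBd2 (edgeR adjusted p = 0.0424 and 0.0437). Neither held in all alternatives, and without KO EBd2 lot 1 the EBd2 value was 0.09 (adjusted p = 0.358). In ES cells, leaving out any 1 of the 4 ES libraries ended the call (adjusted p 0.0803 to 0.266).

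Pcsk6, a related protease, rose in EBd2 from 18.8 ± 0.0366 to 44.5 ± 3.02 CPM (1.24 ± 0.08, edgeR adjusted p = 1.04e-07). Its ES cell difference of 0.17 ± 0.05 (adjusted p = 0.0306) did not hold in DESeq2 (0.164), nor without any 1 of the 4 ES libraries (0.0749 to 0.169). Pgap2, which remodels the lipid of GPI anchors, rose in EBd2 from 26.1 ± 0.896 to 42.7 ± 1.48 CPM (0.71 ± 0.07, adjusted p = 4.84e-06), with 0.07 ± 0.05 in ES cells (adjusted p = 0.388). Like Msln, Pcsk6 and Pgap2 were lowest in fl/fl EBd2, but both kept many reads there.

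Adam17, a sheddase, lay between 57.3 and 61.5 CPM in all groups and passed at neither stage (0.08 ± 0.04 and 0.07 ± 0.05, edgeR adjusted p = 0.203 and 0.295), although it passed at both with library size scaling (0.0245 and 0.000485) and in EBd2 with the filter at 5 CPM (0.043). Muc16, the binding partner, had 0 reads in 7 libraries and 2 reads in KO EBd2 lot 1. RNA of the mucin was thus at or near 0 in the group where Msln was highest.

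Markers of the mesothelium, the tissue in which Msln is best known, were mixed. Of 24 markers, 20 were tested. In ES cells 11 rose and 2 fell, with a median log2 fold change of 0.50, and at thinned depth 7 were called. Of all genes tested, 10.9% rose and 12.8% fell there. In EBd2 13 rose and 4 fell, with a median of 1.69, where 30.7% of all genes rose and 31.5% fell. From ES cells to EBd2, 8 markers rose and 8 fell in fl/fl, and 10 rose and 2 fell in KO. Over that step 28.9% of all genes rose and 30.1% fell in fl/fl, and 31.7% rose and 33.1% fell in KO. The summed level of the 24 markers was 238.5 to 243.8 CPM in fl/fl ES cells, 280.9 to 281.1 in KO ES cells, 248.2 to 255.4 in fl/fl EBd2 and 433.8 to 440.3 in KO EBd2. The part of mesothelial cells in the Msln values was not tested.

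Wt1, a transcription factor that defines mesothelial cells and their precursors, did not share the pattern of Msln. Its level was 0.862 ± 0.647 CPM in fl/fl ES cells, 2.0 ± 0.138 in KO ES cells, 9.85 ± 0.76 in fl/fl EBd2 and 3.74 ± 0.156 in KO EBd2. It was therefore highest in the group where Msln had 0 reads. Its fall in KO EBd2 was -1.40 ± 0.30 (edgeR adjusted p = 0.00169) and the interaction was -2.63 (adjusted p = 0.000798). Its rise in ES cells of 1.23 ± 0.37 (adjusted p = 0.0334) did not hold at thinned depth (0.125) or without 3 of the 4 ES libraries, and was 0.60 without fl/fl ES lot 1 (adjusted p = 0.183).

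Upk3b, a uroplakin of the mesothelial surface, had the group order of Msln. Its step from KO ES cells to KO EBd2 was not called, however (0.34 ± 0.21, edgeR adjusted p = 0.171). It stood at 1.27 ± 0.141 and 3.31 ± 0.424 CPM in fl/fl and KO ES cells and at 0.433 ± 0.0401 and 4.2 ± 0.258 CPM in fl/fl and KO EBd2. The rises were 1.38 ± 0.22 and 3.25 ± 0.36 (edgeR adjusted p = 0.00137 and 9.8e-06), the first not called at thinned depth (0.0787). The keratins Krt19 and Krt7, which simple epithelia also make, had the same order, lowest in fl/fl EBd2 and highest in KO EBd2. The matrix gene Efemp1 was also lowest in fl/fl EBd2, but its KO libraries overlapped between the stages (0.05 ± 0.13, adjusted p = 0.73). Krt19 went from 9.76 ± 2.35 to 52.2 ± 2.57 CPM in EBd2 (2.40 ± 0.12), Krt7 from 7.42 ± 0.38 to 38.5 ± 0.635 CPM (2.38 ± 0.10), and Efemp1 from 1.23 ± 0.216 to 9.04 ± 0.872 CPM (2.86 ± 0.22). In ES cells they rose by 0.79 ± 0.09, 0.48 ± 0.07 and 0.95 ± 0.13, and the Krt7 call was lost at thinned depth (adjusted p = 0.123).

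The other markers named gave a mixed picture. The surface peptidase Dpp4 rose strongly in KO EBd2, from 17.2 ± 0.41 to 79.4 ± 6.39 CPM (2.20 ± 0.09), but had 6.69 and 8.15 CPM in ES cells (0.28 ± 0.12, edgeR adjusted p = 0.0996). The carboxypeptidase Cpe rose at both stages (0.32 ± 0.05 and 1.60 ± 0.09), from its lowest level of 11.8 CPM in fl/fl EBd2. The sulfatase Sulf1 rose in KO ES cells (0.40 ± 0.06) and fell in KO EBd2 (-0.82 ± 0.06, adjusted p = 4.81e-07). Podoplanin, Pdpn, a glycoprotein of mesothelial and lymphatic cells, fell in KO ES cells (-0.34 ± 0.05, adjusted p = 0.000562) and gave 0.07 ± 0.07 in EBd2 (adjusted p = 0.374; 0.00192 with library size scaling).

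**Figure D3:**
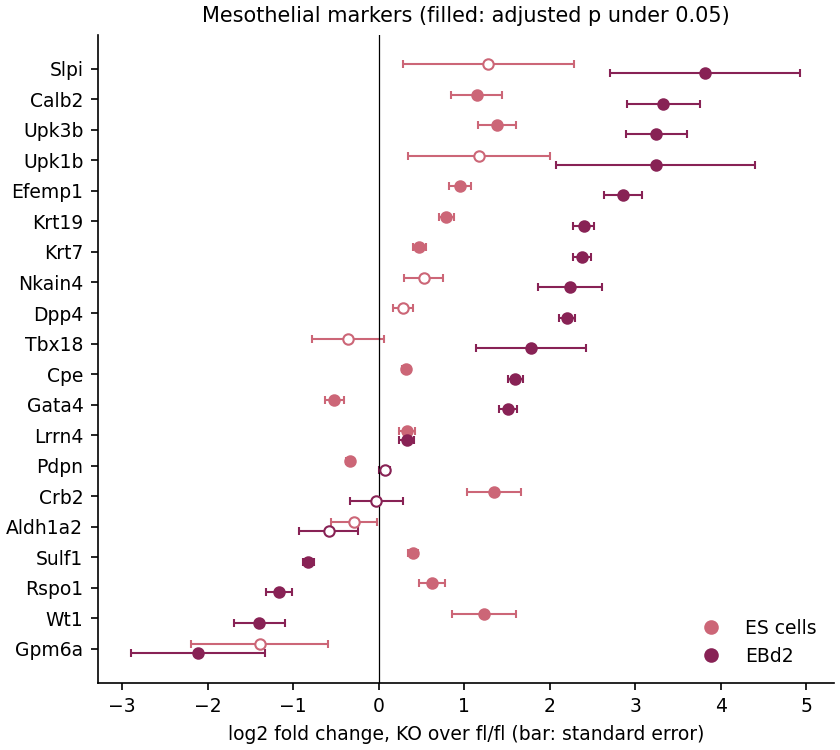
Log2 fold change of KO over fl/fl (x axis) for the 20 tested mesothelial markers (y axis), in ES cells (light) and EBd2 (dark). Bars are standard errors and filled points passed an adjusted p of 0.05. Wt1, Rspo1 and Sulf1 lie above 0 in ES cells and below 0 in EBd2, while Upk3b lies above 0 at both stages.

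Msln has been described as responsive to Wnt signals, and a list of 20 common Wnt and beta-catenin targets was therefore counted. In ES cells 4 rose and 1 fell (median log2 fold change 0.17), a share near the 23.7% of all genes called there. In EBd2 15 rose and 1 fell (median 1.49), where 30.7% of all genes rose and 31.5% fell. Sp5, a transcription factor induced by Wnt, resembled Msln in its fall in fl/fl EBd2: its level was 1.28 ± 0.288 CPM in fl/fl ES cells, 2.34 ± 0.161 in KO ES cells, 0.125 ± 0.0138 in fl/fl EBd2 and 60.2 ± 1.17 in KO EBd2. Its rise was 0.86 ± 0.19 in ES cells (adjusted p = 0.00694 in edgeR, but 0.0912 without fl/fl ES lot 2 and 0.185 at thinned depth) and 8.83 ± 0.22 at the EBd2 stage (adjusted p = 1.39e-10). Brachyury, T, a transcription factor of the primitive streak, differed from Msln in that it was near 1 CPM in 3 groups and at 72.1 ± 5.47 CPM in KO EBd2 alone, with 0.78 ± 0.35 in ES cells (adjusted p = 0.138). Of 17 YAP and TEAD targets tested, another pathway named for Msln, 6 rose and 2 fell in ES cells (median 0.19) and 10 rose and 5 fell in EBd2 (median 0.34).

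Markers of other cell types moved in the same comparisons. Fibroblast and feeder markers, relevant because ES cells are often grown on a layer of fibroblasts, rose for 10 of 18 tested genes in KO ES cells and fell for 0 (median 0.26). They rose for 16 and fell for 0 in KO EBd2 (median 1.98). Of all genes, 10.9% rose in KO ES cells and 30.7% in KO EBd2. The summed level of the 19 markers in the table was 1073 to 1116 CPM in fl/fl ES cells, 1265 to 1364 in KO ES cells, 122.7 to 126.2 in fl/fl EBd2 and 465.7 to 505.1 in KO EBd2, and no marker was at 0 in any group. Like Msln, the list was thus lowest in fl/fl EBd2. Unlike Msln, it was lower in KO EBd2 than in KO ES cells, and 2 members rose and 12 fell over that step, beside 31.7% and 33.1% of all genes.

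Single members differed. Acta2, smooth muscle actin, had 54.9 ± 2.9 CPM in fl/fl and 64.6 ± 2.4 in KO ES cells, but 0.549 ± 0.203 in fl/fl and 1.62 ± 0.491 in KO EBd2. Its fall from KO ES cells to KO EBd2 was -5.30 ± 0.13 (edgeR adjusted p = 1.09e-10), over a step at which Msln was 1.5-fold higher. The filament gene Vim was at 266.8, 320.4, 36.5 and 117.3 CPM in fl/fl ES, KO ES, fl/fl EBd2 and KO EBd2. The collagen gene Col6a1 was at 28.3, 38.8, 3.52 and 42.7 CPM. Its lowest group was that of Msln, but its KO libraries overlapped between the stages. The part of these cells in the Msln values was not tested.

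**Figure D4:**
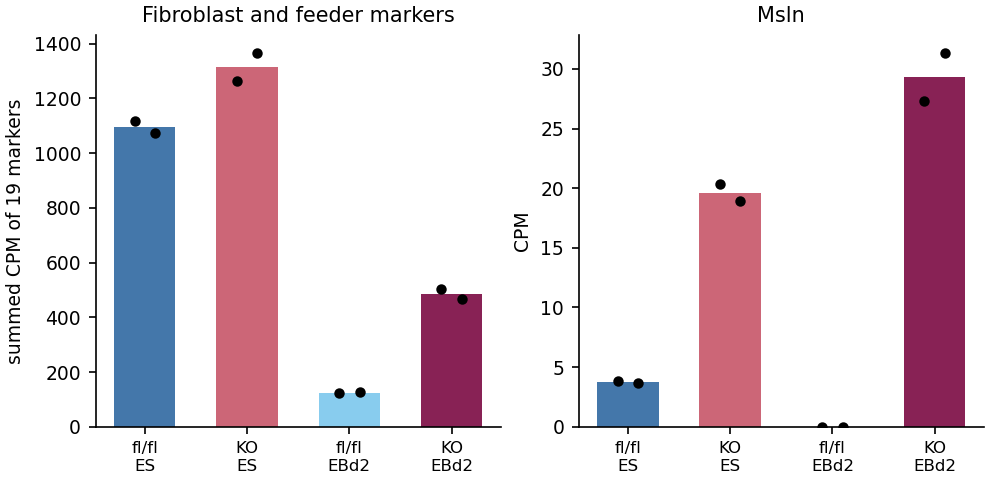
Summed CPM of 19 fibroblast and feeder markers (left) and CPM of Msln (right) on the y axes, by group on the x axes. Bars are group means and points are libraries. Both are lowest in fl/fl EBd2, but the markers are highest in KO ES cells and Msln in KO EBd2.

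The remaining lists are given as counts with their medians, to be read against 10.9% up and 12.8% down among all genes in ES cells, and 30.7% up and 31.5% down in EBd2. Simple epithelial markers rose for 9 and fell for 3 of 18 tested in KO ES cells (median 0.16), and rose for 12 and fell for 4 in KO EBd2 (median 0.65). Primitive and visceral endoderm markers, of which 15 were tested, gave 1 up and 3 down in ES cells (median -0.08) and 14 up and 1 down in EBd2 (median 1.51). Parietal endoderm gave 4 up and 0 down of 12 in ES cells (median 0.11) and 12 up in EBd2 (median 2.01).

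Trophectoderm markers gave 1 up and 1 down of 11 in ES cells (median 0.09) and 8 up and 1 down in EBd2 (median 2.03). Of 19 keratinocyte markers in the table, 12 passed the filter on low counts, and 8 of the 19 had 0 reads in fl/fl EBd2. Those tested gave 2 up of 12 in ES cells (median 1.17) and 11 up in EBd2 (median 5.03). A gene can pass that filter through KO EBd2 alone, so the EBd2 count may be partly built in. Naive pluripotency markers gave 0 up and 8 down of 13 in ES cells (median -0.21) and 6 up and 5 down in EBd2 (median -0.04). Formative and primed markers gave 2 up and 4 down of 11 in ES cells (median -0.15) and 1 up and 10 down in EBd2 (median -1.59). Markers of several lineages were thus higher in the EBd2 group in which Msln was highest, and their part in the Msln values was not tested.

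The genes with the profile most like that of Msln were ranked by Pearson's r of log2 CPM (prior count 2) over the 8 libraries, among 15559 genes with at least 1 CPM in their highest group. These are descriptions over libraries that share genotype, stage and depth. An r of at least 0.95 was reached by 383 genes, 2.46% of those ranked, so a profile close to this one by r was not particular to Msln. The first were Fgf17, a fibroblast growth factor (0.998), Susd1 (0.997), Cth, which makes cysteine (0.997), Cald1, which binds actin (0.997), and Rrm2, a subunit of ribonucleotide reductase (0.997). After them came Tpm4, a tropomyosin (0.997), Heg1, a membrane receptor (0.997), Capn2, a calpain protease (0.997), Arhgdib (0.997), and Ehd2, a membrane-trafficking protein (0.996).

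Their range was far narrower than that of Msln, whose log2 CPM spanned 7.93. The low end of the Msln span is set by the prior count of 2, since fl/fl EBd2 had 0 reads. The spans of the 10 ran from 0.53 in Tpm4 to 2.98 in Arhgdib. From KO ES cells to KO EBd2 their log2 fold changes ran from -0.005 in Cth to 0.28 in Cald1, against 0.58 for Msln. Fgf17, first in likeness, had 231 and 216 reads in fl/fl ES cells, 383 and 353 in KO ES cells, 30 and 39 in EBd2 of fl/fl, then 180 and 202 in EBd2 of KO. It was therefore still detected in fl/fl EBd2. The names depended on the measure: by Euclidean distance, which counts the size of the change, 0 of the 10 were the same, and the nearest were Prl2c3, Cdx1, Tmem176b and Hoxb9.

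**Figure D5:**
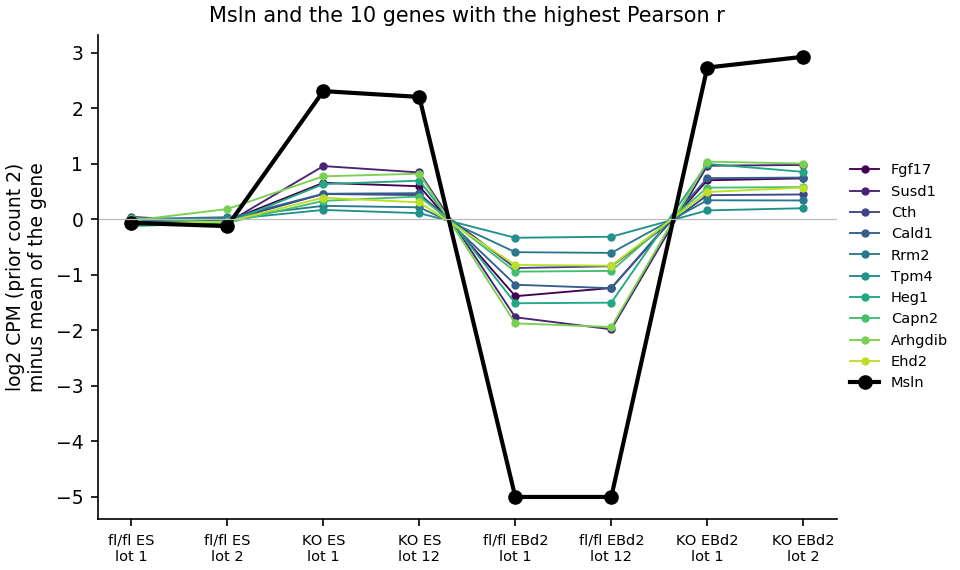
Log2 CPM (prior count 2) minus the mean of each gene (y axis) in the 8 libraries (x axis) for Msln (thick black line) and the 10 genes with the highest Pearson r. Lines join the values of a gene and imply no order of libraries. Like Msln, the 10 genes are lowest in fl/fl EBd2 and higher in KO than in fl/fl at both stages. Not all of them rise from KO ES cells to KO EBd2. Their spans are 0.53 to 2.98 against 7.93 for Msln, where the prior count sets the low end.

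A complete lack of reads in fl/fl EBd2 was found in fewer genes. Of the 16542 genes tested, 233 (1.41%) had 0 counts in both fl/fl EBd2 libraries, and 19 (0.115%) had that together with the group order of Msln. Among those 19, Msln had the most reads, 864 over both KO ES libraries and 629 over both KO EBd2 libraries. The next were Krtdap, a gene of keratinocyte differentiation, with 118 in KO EBd2, the ion channel gene Cnga4 with 115, and the alcohol dehydrogenase gene Adh7 with 85. These were picked out after their values were seen.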

How the data were processed

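The authors deposited raw read counts per gene symbol, whole numbers with no normalization, for 8 libraries of poly(A) RNA. The build GRCm38 (mm10) and Trim Galore 0.6.7 come from the submitters' processing notes. Aligner, counter, annotation and strand setting were not given in the sources. Counts were filtered with filterByExpr, scaled by TMM and fitted in edgeR 4.0.16 (R 4.3.3) with 4 group means over all 8 libraries, with 4 residual and 7.05 prior degrees of freedom. Adjusted p values, other than those given for DESeq2, come from its two-sided quasi-likelihood test with Benjamini-Hochberg correction over 16542 genes, at 0.05. SE was taken as the size of the log2 fold change over the root of F. Msln received Poisson intervals and pooled ratios, with 3 counts as the floor. The same steps, tested on simulated data for KO against fl/fl in ES cells (16542 genes), recovered 73% of 1.5-fold and 97% of 3-fold changes. Alternatives were RLE or no scaling factors, other filters, DESeq2 1.42.0, lot as a block, thinning, and leaving out each library.

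Named by rule were Msln, Skp1a, the 4 nearest coding genes on each side, Mslnl, Muc16, Wt1, Upk3b, Furin, Adam17, the 10 most alike genes, and at most 4 called genes of lowest p from each list and comparison, of which not all are printed. Msln and the 12 lists of genes were chosen with earlier results of these data known. Of the symbols, 34761 matched GENCODE vM21. Libraries of a group differed by more than sampling noise (chi-square per gene 2.12 to 2.81), so none was counted as a copy.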

Additional observations from a re-analysis of the deposited data

Results flagged for a closer look

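Msln moved in opposite directions from ES cells to EBd2 in the 2 genotypes. Both fl/fl EBd2 libraries lay below both fl/fl ES libraries (log2 -4.33, a bound against 3 counts over the group), and both KO EBd2 libraries lay above both KO ES libraries (log2 0.583, n = 2 per group). The difference was not tested, because the gene was chosen for its values.

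The interaction term is KO minus fl/fl in EBd2, less the same in ES cells, in log2. By this term the genotype difference itself differed between the stages for 21 other named genes (edgeR, adjusted p at or under 0.0324). It was called in 48.0% of all genes tested. Many of the 21 were named for low p values in these same data, or after their values were seen, so their number is not a result. Among the neighbours these were Chtf18 (0.235), Metrn (-0.47) and Fbxl16 (-1.66). Among mesothelial markers these were Wt1 (-2.63), Sulf1 (-1.22), Upk3b (1.86), Krt19 (1.61), Krt7 (1.9), Efemp1 (1.91), Dpp4 (1.92), Cpe (1.28) and Pdpn (0.406). Genes that process or anchor mesothelin gave Furin (0.394), Pcsk6 (1.07) and Pgap2 (0.641). Wnt targets gave Sp5 (7.97) and T (5.22), and fibroblast markers gave Vim (1.42), Col6a1 (3.13) and Acta2 (1.3). Skp1a gave -0.238. The term was negative for Metrn, Fbxl16, Wt1, Sulf1 and Skp1a and positive for the other 16.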

How the results depend on the processing

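The log2 ratio of Msln in KO over fl/fl ES cells lay between 2.34 and 2.48 under the alternatives run for it. These were RLE or no scaling factors, thinning, and leaving out each library. Other filters, DESeq2 and lot as a block were not applied to the Msln ratios. In EBd2 the bound of 7.30 became 7.53 with library size scaling and 6.19 to 7.39 on leaving out a library (6.41 without fl/fl EBd2 lot 1, 6.19 without lot 12). The fl/fl stage bound of -4.33 became -4.05 at thinned depth and -4.36 to -3.22 on leaving out a library (-3.44 without fl/fl EBd2 lot 1, -3.22 without lot 12). Both bounds depend on the depth of fl/fl EBd2, since the limit is 3 counts. The KO stage value of 0.58 ranged from 0.48 to 0.73.

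Called genes in ES cells numbered 3926, against 2670 in DESeq2, 2079 at thinned depth, and 1909 to 3958 on leaving out a library (2226 without KO ES lot 1, 2233 without KO ES lot 12, 2036 without fl/fl ES lot 1, 1909 without fl/fl ES lot 2). With lot as a replicate block the count was 2236. Deviations of lot 1 from the other lot of its group correlated between groups at -0.02 to 0.02, so no pairing of libraries is shown. The other lot was 2 in some groups and 12 in others, so these values cannot decide whether equal lot numbers mean a shared origin. With library size scaling the median of all genes was 0.231 in EBd2, 0.144 between stages in KO and 0.075 in ES cells, and the share of calls that were higher went from 49.3% to 67.9% in EBd2 and from 46.0% to 72.1% in ES cells. That share went from 49.0% to 61.9% between stages in KO and from 46.6% to 62.6% for the interaction.

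Haghl in EBd2 turned from -0.07 to 0.154 with library size scaling, a move as large as that of the median of all genes (0.004 to 0.231). It ranged from -0.303 to 0.168 on leaving out a library (0.168 without fl/fl EBd2 lot 1, which is 1 sample fewer). List calls in ES cells fell for mesothelium from 13 to 7 (thinned, or without 1 library), fibroblast markers from 10 to 5 (block, or without 1 library), YAP and TEAD targets from 8 to 4 (the same), Wnt targets from 5 to 2 (thinned), endoderm from 4 to 2, trophectoderm from 2 to 1, epiblast from 6 to 3 and the mesothelin-processing list from 5 to 1, or rose there to 8 with library size scaling. In EBd2 the filter at 5 CPM lowered mesothelium from 17 to 11 and keratinocyte markers from 11 to 5. Of the 10 most alike genes, 3 were the same with a prior count of 0.5, 4 with library size scaling and at least 6 without any 1 library.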
